A study of Mus musculus with 2 samples.

Results

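Pseudogenes with reads assigned to them were described in the embryonic mouse heart. The members were the genes whose GENCODE M21 type contains the word pseudogene and whose deposited level was at least 5 TPM (a level per transcript length, scaled to the same total in each library) in both libraries, with 6 nuclear copies of mitochondrial genes left out. This rule chose 213 of the 7906 pseudogenes listed in the gene tables, or 2.69%. The members were thus selected on TPM in these same libraries, and their levels are given as a description, with no test. Of all 42462 annotated genes in the tables, 10452 passed the same level, a share of 24.6%, and 10018 of those were protein-coding.

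The material was total RNA from hearts of B6NCrl mouse embryos at embryonic day 12.5, pooled from both sexes, with no treatment or mutation. A single group of 2 libraries was sequenced, called replicate 1 and replicate 2, with 10 ng of input RNA each and a size range above 200 nt. The labels give them separate biological replicate numbers. There was no second group, so no contrast between conditions exists and no p-value is given. The gene tables summed to 34751234 and 31847875 expected reads. All 8 heart muscle markers and all 4 red cell markers were at 1 TPM or more in both libraries, as were all 6 liver markers, whose summed level was 172.9 TPM in replicate 1 and 37.9 TPM in replicate 2. Of the 4 skeletal muscle markers 1 passed that level, and of the 4 brain markers 2 did.

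A processed pseudogene is a copy of a messenger RNA that was reverse transcribed and inserted into the genome, so it has no introns and usually no promoter of its own. An unprocessed pseudogene comes from a duplicated stretch of genomic DNA and may keep introns and nearby control sequence. A polymorphic pseudogene is intact in some strains or individuals and disabled in others. Genes with strong expression in the germ line, such as those of ribosomal proteins, have left many processed copies in mammalian genomes. A read from such a gene can match several copies, and a quantifier that shares reads by likelihood then splits them between the gene and its copies.

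The sequences below show how closely members resemble the protein-coding gene they matched best, here called the parent. The parent was the protein-coding gene with the best match of at least 80% identity over at least 50% of the member's transcript. Where several genes tied for the best match, as in 8 members, the first symbol in the alphabet was taken. The name describes likeness and not descent. Each pair is a 90-nt stretch of GENCODE M21 transcript sequence on the GRCm38 build, read 5′ to 3′, chosen inside the coding part of the parent where the pair differed at the most bases. Capitals mark the bases that differ between the pair. Gm10123 (chr9:96895658-96896147, plus strand), the member with the highest level, is shown with Ppia, which encodes the peptidyl-prolyl isomerase cyclophilin A. They had 0 differences over the whole of Gm10123.
Gm10123: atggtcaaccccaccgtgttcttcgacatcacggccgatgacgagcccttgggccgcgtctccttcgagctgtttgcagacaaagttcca
Ppia: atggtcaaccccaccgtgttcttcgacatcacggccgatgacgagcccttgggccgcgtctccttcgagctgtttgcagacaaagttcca
Gm10108 (chr5:13121448-13121766, minus strand), shown with Cycs, the gene of cytochrome c, had 2 differences in its stretch.
Gm10108: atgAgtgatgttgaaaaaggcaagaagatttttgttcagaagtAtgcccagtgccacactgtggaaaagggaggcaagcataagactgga
Cycs: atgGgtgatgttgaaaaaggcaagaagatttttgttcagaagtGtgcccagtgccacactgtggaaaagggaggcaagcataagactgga
H3f3c (chr2:119665626-119666036, minus strand), shown with H3f3a, a gene of histone H3.3, had 3 differences.
H3f3c: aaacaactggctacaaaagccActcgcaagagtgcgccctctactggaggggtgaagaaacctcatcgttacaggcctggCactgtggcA
H3f3a: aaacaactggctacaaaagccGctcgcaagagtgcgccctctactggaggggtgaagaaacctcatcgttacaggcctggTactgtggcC
Pisd-ps1 (chr11:3125904-3131004, plus strand) is shown with Pisd, the gene of phosphatidylserine decarboxylase. It is one of the members with a low posterior SD and 50% or more distinct windows, both defined below. It had 9 differences.
Pisd-ps1: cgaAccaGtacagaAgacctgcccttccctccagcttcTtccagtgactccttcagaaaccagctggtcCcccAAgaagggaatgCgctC
Pisd: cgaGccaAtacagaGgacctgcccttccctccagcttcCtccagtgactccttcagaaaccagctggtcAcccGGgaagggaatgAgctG
Gm7805 (chr17:21964136-21964583, minus strand), shown with Mrpl20, a gene of the mitochondrial ribosome, had 14 differences.
Gm7805: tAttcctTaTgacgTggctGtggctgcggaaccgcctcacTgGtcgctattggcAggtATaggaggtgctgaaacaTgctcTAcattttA
Mrpl20: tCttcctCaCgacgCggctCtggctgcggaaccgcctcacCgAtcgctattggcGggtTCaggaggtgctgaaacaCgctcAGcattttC
Hbb-bh0 (chr7:103850020-103850148, minus strand), shown with Hbb-y, an embryonic beta-like globin gene, also had 14 differences.
Hbb-bh0: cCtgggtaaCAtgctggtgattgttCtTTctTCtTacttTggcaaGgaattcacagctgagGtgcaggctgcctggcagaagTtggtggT
Hbb-y: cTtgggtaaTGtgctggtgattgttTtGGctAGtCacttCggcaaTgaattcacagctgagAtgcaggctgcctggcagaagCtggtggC

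The 213 pseudogenes held 236183 of the reads assigned to annotated genes in replicate 1 and 210755 in replicate 2, which was 0.707% (95% Wilson interval 0.704% to 0.710%) and 0.689% (0.686% to 0.692%). These intervals cover counting error only. All other pseudogenes, with the mitochondrial copies left out, held 0.0582% and 0.0592%. Because TPM divides by length and the members were short, they made up 2.76% and 2.73% of all gene TPM. Their median length was 522 nt, against 2466 nt for protein-coding genes at the same minimum, and 33 members were under 300 nt. The median level was 24.6 and 24.7 TPM, against 25.8 and 26.2 TPM for those protein-coding genes. Reads were concentrated: 10 members held 33.2% and 32.9% of all member reads, and 50 members held 74.7% and 74.4%. At the low end, 5476 of the listed pseudogenes had 0 reads in both libraries. By counting error alone, this allows each an assigned share of up to 8.98e-06% of gene reads in replicate 1 and 9.80e-06% in replicate 2. The limit does not cover reads of a pseudogene that were assigned to a gene of like sequence.

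Gm10123 had 3306 TPM in replicate 1 and 3223 TPM in replicate 2, against 3783 and 3707 TPM for Ppia, and alone held 12.9% and 12.8% of the reads on members. Gm12481, a copy of Serf2, which encodes a small protein that affects amyloid aggregation, had 1412 and 1497 TPM, against 491 and 536 TPM for Serf2. Gm12338 had 1207 and 1277 TPM, against 1028 and 1019 TPM for Cox7c, a subunit of cytochrome c oxidase. All 3 copies are identical to their parent along their whole length, so a read that lies within the copy matches both equally well. The same held for Gm14303, a copy of the small-subunit ribosomal protein gene Rps29, at 1152 and 1236 TPM, against 1069 and 1085 TPM for Rps29. Gm10221 had 1013 and 972 TPM, against 194 and 208 TPM for Atp5l, a subunit of the mitochondrial ATP synthase. Rps23-ps1 had 829 and 816 TPM, against 165 and 163 TPM for Rps23. Both of these copies are also identical to the parent. For Gm10221 this rests on an M21 transcript of 309 nt, whereas its deposited length was 422 nt, and the rest was not compared.

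Gm10108, the Cycs copy shown above, had 838 and 742 TPM, against 145 and 150 TPM for Cycs, with 99.4% identity. Another protein-coding gene matched Gm10108 equally well, and its level was not compared. Gm10177 had 710 and 688 TPM, against 25.4 and 21.7 TPM for Sec61g, the gamma subunit of the channel that carries proteins into the endoplasmic reticulum. That was the widest excess of a copy over its parent among the 60 members with a low posterior SD (defined below), 27.9-fold in replicate 1 and 31.8-fold in replicate 2. Gm10177 matches Sec61g without a difference over 94.6% of its M21 transcript. Gm12918 had 593 and 572 TPM, against 832 and 830 TPM for Rpl13. In expected counts, which are not divided by length, Gm12481, Gm12338, Gm14303 and Gm10108 were below their parents. Of the 20 members with the highest mean level, 17 were listed above their parent in TPM in both libraries and 10 in expected counts, and 18 had no 100-nt stretch that was free of a near match in another gene.

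**Figure D1:**
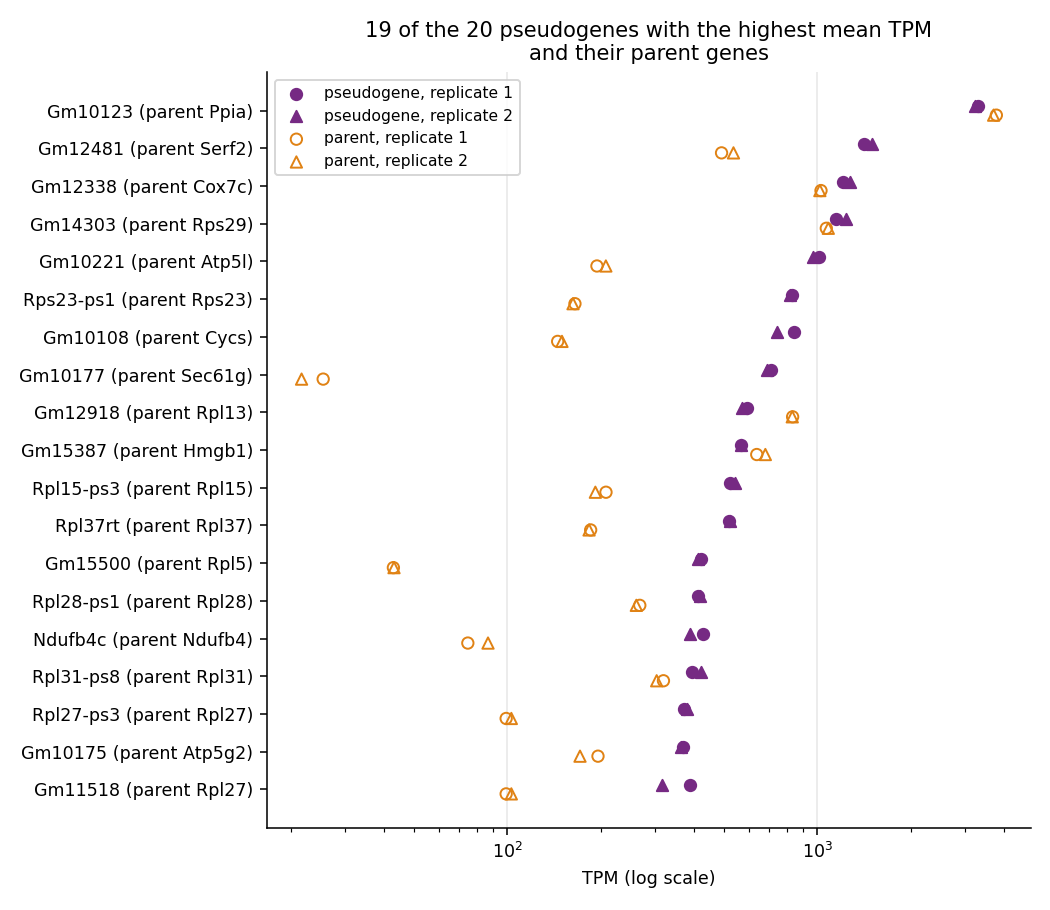
Level in TPM (log scale) of 19 of the 20 pseudogenes with the highest mean TPM (filled) and of their parent genes (open), with circles for replicate 1 and triangles for replicate 2. Gm10123 leads at 3306 and 3223 TPM, and 16 of the 19 pseudogenes stand to the right of their parent in both libraries.

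The assignment of reads to members was described by 2 measures. The first is the posterior standard deviation (SD) of the count in the deposited tables, divided by the expected count, with 5% or less in both libraries called a low SD. A low SD says that the estimated count varied little, and not that the reads can be told apart by sequence. By this measure 60 of the 213 members (28.2%) had a low SD, against 99.0% of protein-coding genes at 5 TPM or more. The median SD was 9.41% of the count in replicate 1 and 9.75% in replicate 2, against 0% for those protein-coding genes in both libraries. The highest values were 69.9% and 75.5%. A low SD went with many reads: its members had a median of 1904 and 1687 reads, and the other 153 had 202 and 200.

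The second measure is the share of a member's 100-nt windows with no match within 2 mismatches in any other gene's transcript. Only matches in the direction of the transcript were searched, so a match to the opposite strand does not count. The length of 100 nt stands for a read, since the deposited effective length was 99 nt below the length for nearly all genes. No window was distinct in 136 members, and 50% or more of the windows were distinct in 22. Counting exact matches only, 41 members (19.2%) had 50% or more distinct windows, against 96.9% of protein-coding genes at 5 TPM or more and 78.7% of the pseudogenes that were not members. The 2 measures did not coincide: of the 60 members with a low SD, 28 had no distinct window at all, and among the 153 others 108 had none. Over the 213 members, Spearman's rho between the distinct share and the higher SD of both libraries was -0.33, given as a description. Members share parents and libraries, so they are not independent points.

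Together the measures gave 4 classes. The 41 members with a low SD but under 50% distinct windows held 65.3% of member reads in replicate 1 and 65.2% in replicate 2, and their median level was 279.0 TPM. The 150 members with a higher SD and under 50% distinct windows held 29.6% and 29.4%. Only 19 members combined a low SD with 50% or more distinct windows, and they held 5.08% and 5.41% of the reads. The remaining 3, Gm7862, Gm10849 and Gm12013, were distinct in sequence but had an SD over 5% in at least 1 library, and they held 0.0542% and 0.0456%. Rpl15-ps3, an identical copy of the ribosomal protein gene Rpl15 listed at 522 and 543 TPM, shows a high level with an undecided split: its SD was 869 reads of 6362 in replicate 1 and 405 of 5989 in replicate 2. Gm10123 had an SD of 191 reads of 30544 in replicate 1 and 193 of 26914 in replicate 2, with no distinct window.

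**Figure D2:**
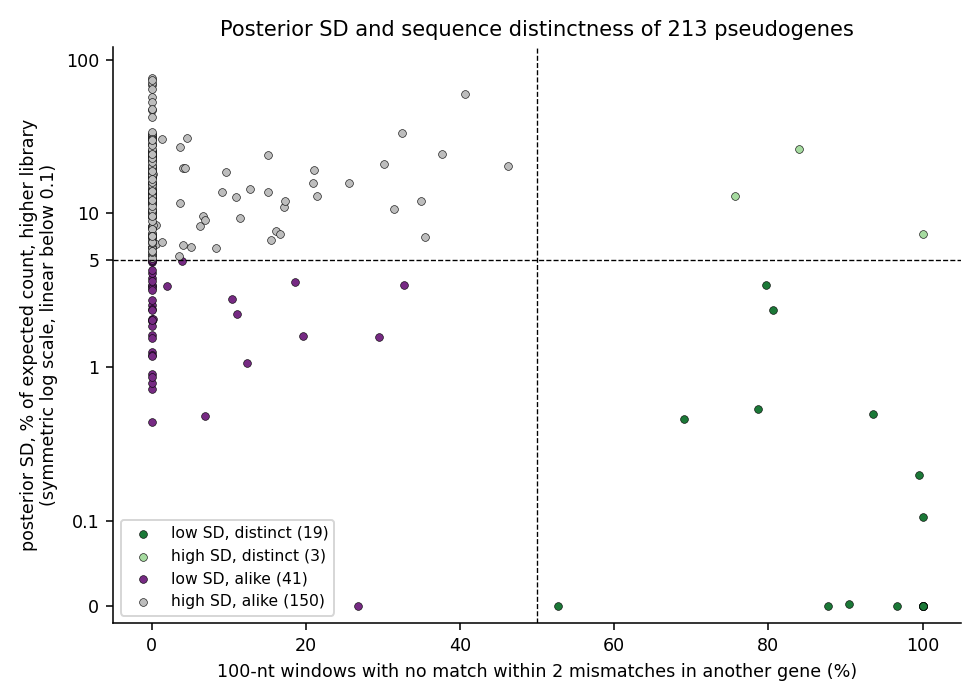
Posterior SD as a percentage of the expected count (higher of both libraries, symmetric log scale that is linear below 0.1) against the share of 100-nt windows with no near match in another gene, for 213 pseudogenes coloured by class. Dashed lines mark 5% and 50%; the 41 low-SD members left of the vertical line outnumber the 19 to its right.

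The 19 members with a low SD and distinct sequence were led by Rps4l, a gene like the ribosomal protein gene Rps4x, at chr6:148354656-148355598. Rps4l had 247 and 255 TPM from 4917 and 4596 reads, with an SD of 0.12 and 0.13 reads. Its closest protein-coding match, Rps4x, was only 79.7% identical over 86.0% of it, under the minimum for a parent. 2810025M15Rik (chr1:157412352-157420236), which RefSeq lists as a long non-coding RNA, had 87.0 and 84.5 TPM. Its exons overlap those of Rasal2 on the other strand. Hbb-bh0, the globin pseudogene shown above, had 80.4 and 65.6 TPM, but these came from 57 and 42 reads on a 129-nt transcript. Hbb-y stood at 27205 and 24177 TPM, so the pseudogene's level was 0.00296 and 0.00271 times that of its closest relative, the lowest ratio in the low-SD members.

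6820431F20Rik (chr8:20262613-20297432) had 24.7 and 26.7 TPM from 2660 and 2603 reads, all on 1 of its 2 listed transcripts. Ube2d-ps had 19.6 and 19.8 TPM, and its best match, the ubiquitin-conjugating enzyme gene Ube2d1, covered 5.69% of it. Pisd-ps1 had 17.0 and 16.5 TPM, against 40.6 and 41.4 TPM for Pisd. Hyi, which encodes hydroxypyruvate isomerase and was the one member typed as a polymorphic pseudogene, had 16.1 and 16.9 TPM from 333 and 308 reads with an SD of 0, and the leading transcript of its 5 held 61.4% and 60.0% of the gene. 2700099C18Rik had 15.0 and 16.7 TPM, and its best match was Ndc80, a kinetochore gene, at 90.9% identity over 32.0% of it. 3110053B16Rik had 13.2 and 17.2 TPM, against 2.46 and 2.68 TPM for 9030624G23Rik, the third highest ratio of the low-SD members, and it shares exons with Zfp125, itself a member at 11.9 and 11.3 TPM.

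Ppp4r1l-ps had 8.60 and 9.93 TPM from 514 and 561 reads. The remaining 9 had at most 172 reads in a library. Gm14276 had 11.7 and 9.35 TPM, against 678 and 659 TPM for Rps2, a small-subunit ribosomal protein gene. Gm12328 had 13.0 and 7.17 TPM from 30 and 15 reads, against 2110 and 2126 TPM for Ubb, a polyubiquitin gene. Gm7162 had 6.73 and 7.74 TPM, against 83.7 and 86.4 TPM for Rangap1, the activator of the Ran GTPase. Gm7805, the Mrpl20 copy shown above, had 6.91 and 6.44 TPM, against 124 and 112 TPM for Mrpl20. Gm6276 had 6.35 and 6.83 TPM, against 541 and 525 TPM for the ribosomal protein gene Rpl19. Gm14057, Gm13940, Gm15626 and Gm10509 lay between 5.03 and 9.73 TPM in both libraries. Of the 19, 7 had under 100 reads in the mean, 11 had an SD of 0 in both libraries and 6 overlapped an exon of another gene.

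**Figure D3:**
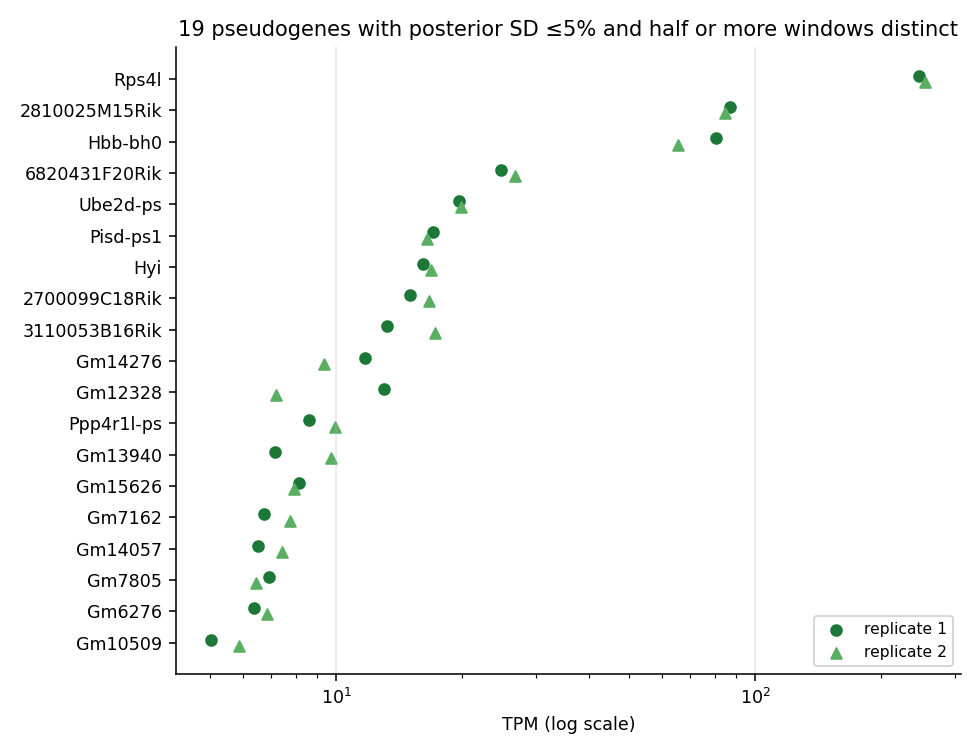
Level in TPM (log scale) of the 19 pseudogenes with a posterior SD of 5% or less and 50% or more distinct windows, with circles for replicate 1 and triangles for replicate 2. Rps4l stands apart at 247 and 255 TPM, and 4 of the 19 were at 20 TPM or more in both libraries.

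By type, 170 members were processed pseudogenes, or 3.18% of the 5349 listed, and 38 of them had a low SD. They held 73.8% and 73.4% of member reads and were led by Gm10123, Gm12481 and Gm12338. The 21 transcribed processed pseudogenes were 11.5% of 183 listed, with 8 of low SD, and were led by Gm10177, by Rpl37rt at 520 and 521 TPM against 186 and 183 TPM for Rpl37, and by Gm15500. In expected counts Rpl37rt was the lower one, at 2456 and 2214 reads against 3367 and 3008 for Rpl37. Gm15500 had 421 and 413 TPM, against 42.8 and 43.0 TPM for Rpl5, a large-subunit ribosomal protein gene. The 10 unprocessed pseudogenes were 0.513% of 1951 listed, led by Hbb-bh0, Gm21092 and Gm6483. The 10 transcribed unprocessed pseudogenes were 5.59% of 179 listed, and 9 of them had a low SD, with 6 at 50% or more distinct windows. They were led by Tmem181b-ps at 50.3 and 51.9 TPM, against 22.2 and 21.9 TPM for Tmem181a, a membrane protein gene. Gm26712 followed at 44.2 and 51.8 TPM; its exons overlap those of its own parent, Pyurf, on the same strand, and Pyurf had 21.4 and 20.5 TPM. In expected counts Gm26712 was far lower, at 123 and 130 reads against 1754 and 1518 for Pyurf. Gm10849, typed only as pseudogene, had 7.21 and 5.61 TPM. No pseudogene of an immunoglobulin or T cell receptor segment and no unitary pseudogene was a member.

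A parent was assigned to 202 members, which shared 179 parents, with a median identity of 99.7%. Of these, 70 were identical to the parent over their full M21 length and 157 differed from it at 1% or less of the aligned bases. The median level of the parents was 229.7 TPM, and 127 of the 178 with a level reached 100 TPM in the mean. Protein-coding genes at 5 TPM or more had medians of 25.8 and 26.2 TPM, and their share at 100 TPM was not computed. These parents were reached through members chosen on TPM, which can include reads shared with the parent. Where the parent had a level, 163 members were below it in both libraries, 35 were above it and 2 were mixed, of 200 in all. In expected counts 20 were above it in both libraries. Of the 35 above, 19 were identical to the parent and 2 had 50% or more distinct windows. The median difference of member minus parent on the log2(TPM + 0.1) scale was -2.56 in replicate 1 and -2.51 in replicate 2. It was -1.05 and -1.11 for the identical copies, -3.75 and -3.86 for other copies that differed at 1% or less of the aligned bases, -4.05 and -4.40 for copies that differed at more than 1% and up to 5%, and -3.62 and -3.46 for the 11 that differed at more than 5%. In the 12 with 50% or more distinct windows the mean of both libraries had a median of -5.23. Over all members with a low SD and a parent level it was -0.024, with 0.28 in those with under 50% distinct windows and -4.34 in those with 50% or more. The member was shorter than its parent in 190 of 200 pairs, which matters for levels per length: identical copies had a median of 441 nt, and their parents 1009 nt.

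**Figure D4:**
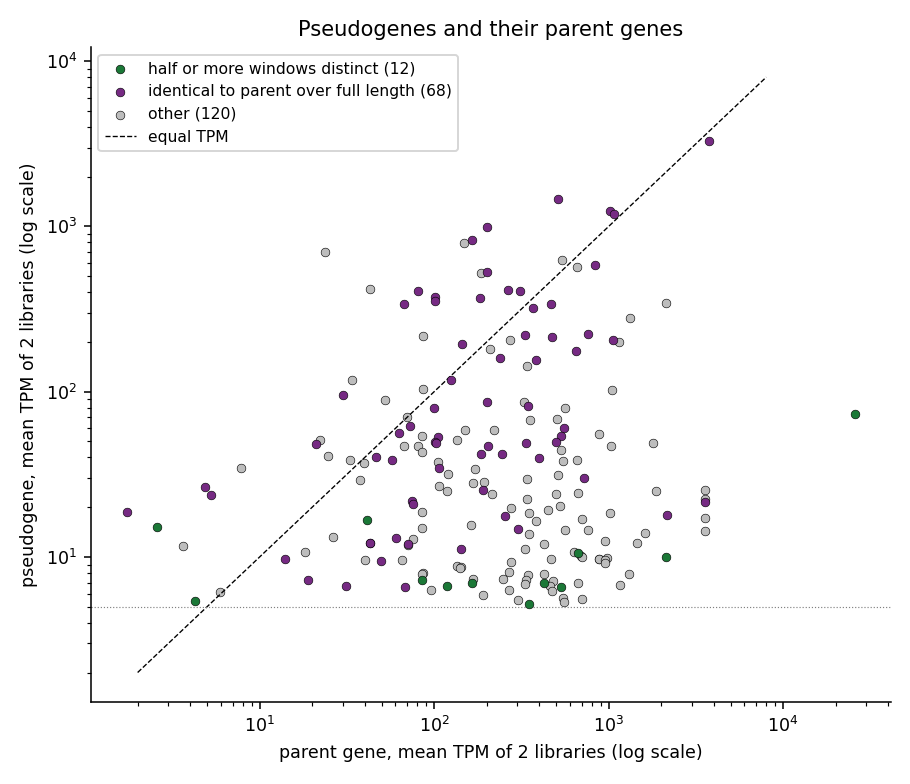
Mean TPM of each pseudogene against mean TPM of its parent gene (both log scale, means of 2 libraries) for 200 pairs, coloured by likeness, with a dashed line at equal TPM and a dotted line at the minimum of 5 TPM. Of the pairs, 35 lie above the dashed line in both libraries, 19 of them identical to the parent.

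Families were assigned by the first letters of the parent's symbol. Parents were sought for members only, so the share of each family among all listed pseudogenes is not known. Of the members, 97 had a parent outside every named family, and those held 24.9% and 24.6% of member reads. Copies of cytosolic ribosomal protein genes formed the largest named family, with 56 members from 48 parents. They held 35.1% and 35.0% of member reads. Of the 56, 16 had a low SD, 43 had no distinct window, 18 were identical to the parent and 13 stood above it in TPM. Gm14303 and Rps23-ps1 led them, and the family reached down to Gm12013, a copy of Rpl39, at 5.04 and 5.42 TPM. Leaving out Rpl22l1, the relative of Rpl22, the 47 ribosomal protein genes with a member had a median of 382 TPM, and 572 TPM when the TPM of their copies was added. The 32 ribosomal protein genes at 5 TPM or more without a member had a median of 557 TPM. Adding copies of 5 TPM or more can only raise a level, and short copies weigh more in TPM than in reads. These medians are given as a description and were not tested. For Rpl27, the copies Rpl27-ps3 and Gm11518 held 88.5% and 87.1% of the summed TPM of the gene and its copies.

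The family of nuclear-encoded mitochondrial proteins was limited to parents with symbols that start with Atp5, Cox, Nduf, Uqcr or Slc25. It gave 10 members, with 8.62% and 8.46% of member reads, led by Gm12338, Gm10221 and Ndufb4c. Copies of other genes of mitochondrial proteins, such as Gm10108 of Cycs and Gm7805 of Mrpl20, were not counted in it. Ndufb4c had 426 and 388 TPM, against 74.5 and 86.5 TPM for Ndufb4, a subunit of respiratory complex I. Glycolysis gave 8 members, none with a low SD and none with a distinct window. Among them Pgk1-rs7 had 59.7 and 48.4 TPM, against 524 and 535 TPM for Pgk1. Gm4735 had 32.4 and 36.7 TPM, against 8.59 and 6.99 TPM for its closest match, the enolase gene Eno1b. Levels of other enolase genes are not given here. Pgam1-ps2 had 29.4 and 30.5 TPM, against 710 and 727 TPM for the phosphoglycerate mutase gene Pgam1. Gapdh had 5 members between 13.5 and 31.8 TPM, which together held 2.83% and 2.68% of the TPM of Gapdh and its copies.

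Histone and HMG protein genes gave 7 members. Gm15387 had 567 and 568 TPM, against 638 and 680 TPM for Hmgb1, which encodes an abundant chromatin protein. H3f3c had 260 and 298 TPM, against 1346 and 1293 TPM for H3f3a, and Gm8203 had 201 and 208 TPM, against 1046 and 1067 TPM for the histone variant gene H2afz. Proteasome and ubiquitin genes gave 6, led by Gm1821 at 332 and 359 TPM, against 2110 and 2126 TPM for Ubb. Gm13835 followed at 88.2 and 75.4 TPM, against 348 and 339 TPM for the proteasome gene Psma3, and Gm10705 at 52.2 and 65.2 TPM, against 146 and 154 TPM for Ube2l3. RNA-binding protein genes gave 5, led by Gm7964 at 48.0 and 46.5 TPM, against 1011 and 1045 TPM for Hnrnpk; the next were Gm5641, a copy of Hnrnpa3, and Gm12696, a copy of Hnrnpc.

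Chaperones gave 4 members, of which Gm8355 had 44.4 and 53.8 TPM, against 1797 and 1781 TPM for Hspa8, the constitutive heat shock protein gene. Gm16550, a copy of Dnajc9, was the shortest member at 126 nt. Its 51.3 and 42.1 TPM came from 32.7 and 24.3 expected reads, since 1 read at its effective length was worth 1.57 and 1.73 TPM. Gm15542, a copy of Dnaja1, had 7.47 and 7.28 TPM. Cytoskeleton genes also gave 4, with Gm15899 at 24.6 and 10.9 TPM, against 249 and 258 TPM for the Arp2/3 subunit gene Actr3, and Gm10080 and Gm5526 as copies of the myosin light chain gene Myl6. Zinc finger genes gave 3: Gm10193 as a copy of Zfp706, Znf41-ps and Gm10509. Znf41-ps, at 5.86 and 6.47 TPM, stood at about the level of its closest match Zfp991, at 6.33 and 5.57 TPM. Eif4a-ps4 was the one copy of a translation factor gene, at 5.76 and 8.74 TPM, against 343 and 329 TPM for Eif4a1.

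**Figure D5:**
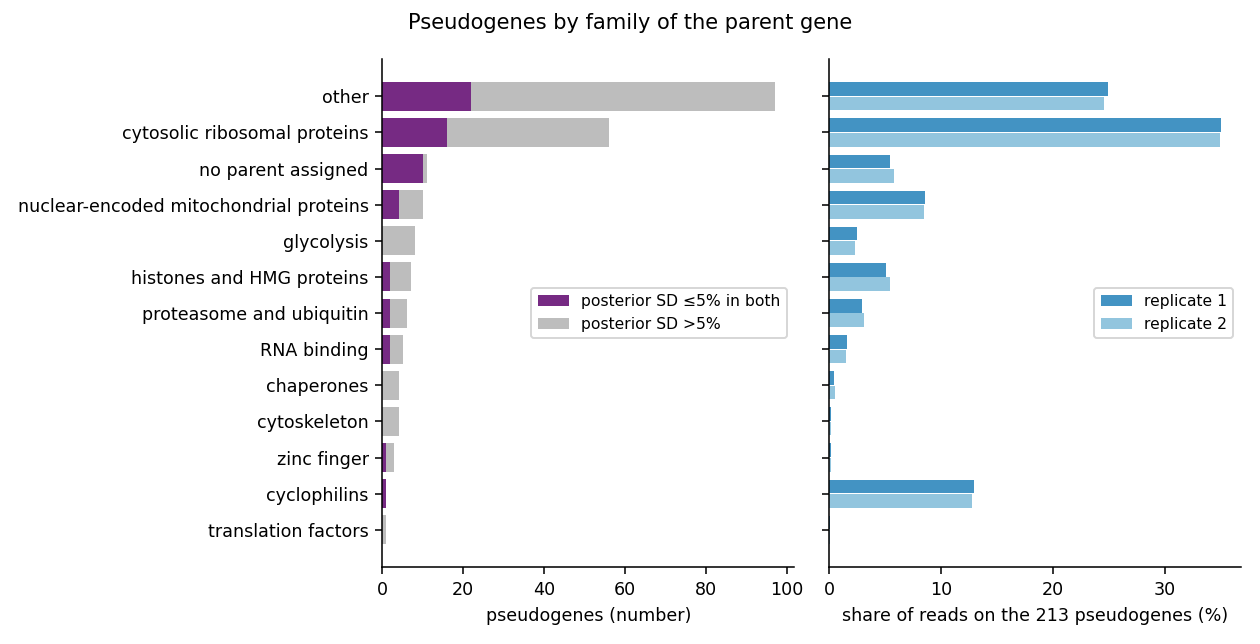
Number of pseudogenes by family of the parent gene (left, split by posterior SD) and share of the reads on all 213 pseudogenes held by each family (right, in percent, by library). Cytosolic ribosomal protein copies hold 35.1% and 35.0% of the reads, and the single cyclophilin copy, Gm10123, holds 12.9% and 12.8%.

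Cdh11, which encodes a cadherin of mesenchymal cells, was the closest match of 5 members, as many as Gapdh. Gm21092 (chr8:20567597-20582771) had 53.4 and 55.0 TPM and 2610005L07Rik (chr8:20385782-20424814) had 41.3 and 44.6 TPM, against 83.3 and 87.0 TPM for Cdh11, which lies on the same chromosome at chr8:102632095-102785642. Gm10557, Gm6483 and Gm21811 ranged from 7.66 to 20.9 TPM. In contrast to the Gapdh copies, the Cdh11 relatives together held 61.6% and 62.3% of the summed TPM. In expected counts, Gm21092 had 4777 and 4458 reads and 2610005L07Rik had 1356 and 1305, against 8099 and 7647 for Cdh11. The share of all the relatives in expected counts was not computed. The relatives were between 93.2% and 96.3% identical to Cdh11, yet also resembled each other, so that Gm21092 had no distinct window and 2610005L07Rik had 11.1%. Counting exact matches only, 36.7% and 20.8% of their windows were distinct. These measures rest on M21 transcripts of 955 and 948 nt, whereas the deposited lengths of the 2 genes were 3889 and 1489 nt. The rest of the counted sequence was not compared.

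Of the 213 members, 124 lay between genes, 65 lay within introns (35 on the strand opposite to the gene and 30 on the same strand) and 24 overlapped an exon of another gene (14 opposite and 10 the same strand). No source used here states whether counting used strand. Reads from a stretch shared with an exon on the opposite strand may therefore be mixed with reads of that gene. For overlaps on the same strand, strand could not separate the reads of a shared stretch in any case. The length of each overlap is not given here, so this limit need not hold for all reads of the 24 members. Gm12481 (exon of Fam221b, opposite strand) and Rps23-ps1 (exon of Gm5148, opposite strand) were among them. RefSeq types differed from GENCODE for some: 155 members were pseudogenes and 23 transcribed pseudogenes there, 25 were not matched, and 7 were protein-coding, namely Rpl37rt, Ndufb4c, H3f3c, Gm15501, Ppp1ccb, Gm21451 and Gm10509.

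Between the libraries, 20 members (9.39%) differed by more than 1.5-fold in TPM. Replicate 1 was higher in 9 of them, against a background of 0.150% of protein-coding genes at 5 TPM or more, and replicate 2 in 11, against 0.110%. With 1 library on each side these counts have no test. The median absolute difference on the log2(TPM + 0.1) scale was 0.16 for members and 0.06 for the protein-coding genes. Within the members it was 0.08 at a low SD and 0.20 at a higher SD. Of the 20, 12 had under 100 reads in the mean and 1 had a low SD, Gm12328. The widest differences with 100 reads or more were Gm7334, a copy of Btg3, at 16.4 and 7.45 TPM, Gm10146, a copy of the RNA-processing gene Lsm7, at 71.1 and 35.5 TPM, and Gm10241, a copy of Sumo2, at 76.7 and 44.2 TPM. Their SDs were 18.2% and 31.7%, 14.7% and 23.8%, and 12.1% and 20.5% of the counts. Lsm7 itself had 89.1 and 122 TPM, and so ran the other way. In the other direction, Mrip-ps had 7.63 and 11.7 TPM, Gm10182 7.71 and 11.8 TPM, and Gm5812 10.2 and 15.6 TPM, each 1.52- to 1.53-fold higher in replicate 2.

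At the edge of the rule, Gm10509 (5.03 and 5.85 TPM), Gm12013 (5.04 and 5.42 TPM) and Gm20430 (5.17 and 10.8 TPM) were just inside the minimum. Gm12350 (5.33 and 4.99 TPM), Gm13456 (5.08 and 4.90 TPM) and Gm13910 (5.49 and 4.75 TPM) were just outside. Gm12013 rested on 6.67 and 6.48 expected reads, and Gm20430, a copy of Rpl12, had an SD of 69.9% and 40.7% of its count. The just-excluded Gm13456 had more reads, 152 and 132, with an SD of 5.39% and 5.73%.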

How the data were processed

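Total RNA from e12.5 mouse hearts was sequenced in 2 libraries. The values are as deposited by the authors: expected counts with a posterior SD of the count, TPM, FPKM, and, in the transcript tables, the percent of a gene's level on each transcript. The accompanying notes name mm10 and the GENCODE M4 annotation; no source used here names the quantification program. Genes were matched to GENCODE M21 by identifier without version, which placed 42462 of 43346 Ensembl rows.

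Likeness was computed from M21 transcripts (the representative is the transcript with the highest mean TPM) with blastn 2.17.0, plus strand; gapped windows count as unmatched. Lengths in M4 and M21 agreed within 5 nt for 158 members. By more than 5 nt, 36 were longer and 19 shorter in the deposited tables. For those, likeness and distinct windows describe the M21 sequence and not all of the counted sequence. Values were handled in Python 3.11.15 and differences taken on log2(TPM + 0.1). Libraries were scaled for alternatives with edgeR 4.0.16 and DESeq2 1.42.0 on expected counts rounded to whole numbers. The calculations were tested on simulated data. Depth was 34751234 and 31847875 expected reads, so a member at 20 reads has a wide counting error.

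Members, families and lists were chosen with earlier results of these data known. The genes named were the 10 highest members and the 10 highest with a low SD (the same genes), the 3 highest of each type and family, with 1 member counted but not reported here, those next to the minimum, and the extremes between libraries and against parents. The 19 distinct members, the Cdh11 and Gapdh groups and a few others were named after their values were seen, as was the window measure.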

Additional observations from a re-analysis of the deposited data

How the results depend on the processing

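The number of pseudogenes was 329 at a minimum of 2 TPM. It stayed within 1.5 times of 213 under the other alternatives (a minimum of 10 TPM, FPKM, posterior mean TPM, the lower TPM bound at 160, a read minimum of 20 and the 6 mitochondrial copies kept), and was 223 and 231 without replicate 1 and without replicate 2. The 60 members with a low SD became 34 at 2%, 104 at 10%, 165 at 20% and 104 when the TPM interval was to span at most 50% of the TPM. Adding the window measure, chosen after seeing the data, left 19 with 2 mismatches allowed and 22 with exact matches, and a posterior variance per read under 0.1 left 20. Members with a parent ranged from 191 to 202 under stricter identity or coverage. The median log2 ratio to the parent of -2.55 was -2.50 with a pseudocount of 1 and -4.18 on expected counts, which are not divided by length. It was -0.024 for low-SD members, -5.23 for members with 50% or more distinct windows and -3.92 without identical copies, and ranged from -2.56 to -2.51 with 1 library left out. The share of gene TPM of 2.74% was 0.698% of reads, and 0.0652% for the 19 distinct low-SD members. Of the 20 members past 1.5-fold between libraries, 5 were past 2-fold and 8 had 100 reads or more; TMM scaling and DESeq2 size factors gave 16 each. In expected counts, an alternative chosen after seeing the data for these totals, 20 members were above the parent in both libraries in place of 35, and 10 in place of 17 among the 20 highest. Of 43 single members compared with their parents, 8 stood above the parent in TPM and below it in counts: the log2 ratio in counts was -1.32 for Gm10108, -1.88 for Gm12338, -1.01 for Gm12481, -1.87 for Gm14303, -0.45 for Rpl37rt, -3.68 for Gm26712, -2.61 for Gm10509 and -0.067 for Znf41-ps. With 1 library left out, the TPM ratio of Znf41-ps was 0.21 without replicate 1 and -0.11 without replicate 2. As to depth, 53 members had under 100 reads in the mean and 6 had under 20. No paired analysis was possible because there was 1 group.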
